A study of Mus musculus with 24 samples.

Results

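Methionine restriction (MR) with elemental amino acids was examined across all genes in mouse liver, by comparing the 6 libraries of the elemental MR diet with the 6 libraries of the elemental control diet, 12 of the 24 libraries of the series. All samples were liver of male C57BL6/J mice, a common inbred strain, aged 4 months, and no transgene or deletion is named in the labels. In the elemental diets the protein source was free amino acids instead of a whole protein. The control diet held 0.86% methionine and the MR diet 0.17%. The remaining 12 libraries came from mice fed casein control or oxidised casein MR diets, and they entered the model fit and 1 comparison below. Libraries were chosen by their labels, and no measured value entered the choice. The labels do not say how long the diets were fed, or whether a library is 1 mouse or a pool. The p-values therefore measure the spread between these samples.

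Methionine is an essential amino acid. It starts nearly every new protein, supplies methyl groups as S-adenosylmethionine, and gives its sulfur to cysteine and from there to glutathione, the main thiol of the hepatocyte. When an amino acid runs short, uncharged tRNA activates the kinase GCN2, general translation slows, and the transcription factor ATF4 is made and induces genes of amino acid synthesis, transport and tRNA charging. A second regulator, NRF2, is held by KEAP1 until electrophiles or oxidants release it, and it then induces genes of glutathione synthesis and detoxification.

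The 12 libraries held 13.5 M to 20.8 M counted reads (M, mega). Levels are given as CPM (read counts scaled to a common library size after correction for library composition) and changes as log2 fold changes, MR minus control, with their standard error (SE) from edgeR's quasi-likelihood test. A gene was called when its p-value, adjusted by Benjamini and Hochberg's method over all 13441 genes tested, was below 0.05. Of the genes tested 1803 were called, 13.4%, with 911 higher (6.78%) and 892 lower (6.64%) with MR. Counts of list members below are to be read against these shares. The median change over all genes was -0.0028 on the log2 scale. In 435 genes (3.24%) all MR libraries lay above all control libraries, and in 483 (3.59%) all lay below. On the first principal component of the 12 libraries, which held 30.4% of the variance, the controls lay at -18.3 or lower and the MR libraries at 12.1 or higher. Markers of liver cells matched the label: Alb (albumin, ENSMUSG00000029368) was the most abundant transcript, and all 6 hepatocyte markers passed the filter on low counts. Of these 5 had values below 0 and 3 fell, Alb (-0.35 ± 0.06), Apoa1 (-0.52 ± 0.10) and Serpina1c (-0.60 ± 0.13), and the highest MR sum of the 6, 93789 CPM, lay below the lowest control sum, 108990.0 CPM. Their part in the results on secreted proteins below was not tested.

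The MR libraries were unequal in how far they had moved from the controls. Among called genes whose average log2 CPM reached 1, library E_MR_3405 was the farthest from control in 41.8% of the 869 higher genes and 31.9% of the 791 lower genes. Library E_MR_3420 was the nearest to control in 37.1% and 28.4% of them. Without library E_MR_3405, 1400 genes were called, and without library E_MR_3420, 1778. Cela1, an elastase and the 1 tested marker of pancreas acinar cells, was at 372 CPM in library E_C_3430 and at most 56.8 CPM in the other controls.

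**Figure D1:**
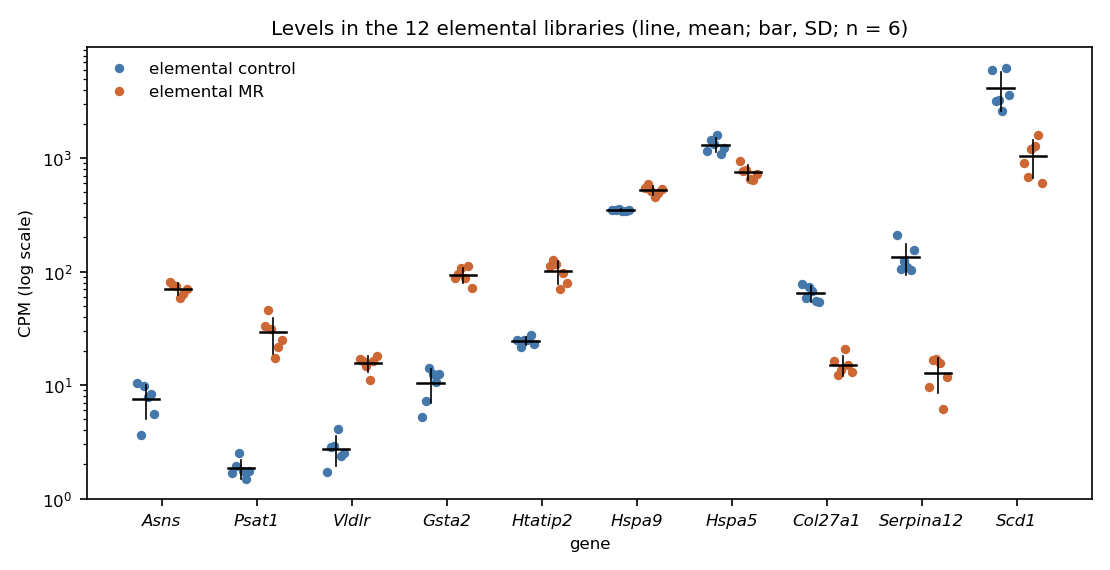
CPM on a log axis of 10 genes in the 6 elemental control (blue) and 6 elemental MR libraries (orange), with points for libraries, lines for means and bars for SD. In each of the 10 genes the groups do not overlap, from Psat1, at 2.52 CPM or less in controls and 17.4 CPM or more with MR, to Scd1, at 2603 CPM or more in controls and 1598 CPM or less with MR.

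Before single pathways are described, the genes with the largest changes in CPM are given. After the correction for composition CPM is not a share of reads. Over all genes tested the means summed to 1.0681e+06 CPM in controls and 9.6842e+05 CPM with MR. A loss in CPM is therefore larger, and a gain smaller, than the same change as a share of reads. Alb took 7.42% of reads in controls and 6.43% with MR (means of 6). The largest gains in CPM were those of Ahsg, the plasma protein fetuin-A, Cyp4a14, a fatty acid hydroxylase, and Gstm1, a glutathione S-transferase. Ahsg went from 9434 to 11860.0 CPM, Cyp4a14 from 756 to 3112 CPM, and Gstm1 from 1023 to 2816 CPM (means of 6). Next came Mat1a, which makes S-adenosylmethionine (1958 to 2872 CPM), and Fth1, the ferritin heavy chain (1458 to 2205 CPM). The others among the 12 largest gains were C3, Rbp4, Ces1c, Csad, Creg1, Ftl1 and Cyp2a5. The call of Ahsg was lost in 7 of its 19 alternative fits, those without library E_C_3401, E_C_3418, E_C_3427 or E_C_3428 or library E_MR_3403, E_MR_3405 or E_MR_3424. The largest losses were those of Alb, from 79352 ± 2698 to 62336 ± 2402 CPM (SD, n = 6), and of the mitochondrially encoded mt-Nd4, mt-Cytb and mt-Nd2. The secreted proteins Mup3, Serpina3k, Serpina1e, Apoa1 and Serpina1c and the desaturase Scd1 followed, with mt-Rnr2 and mt-Nd1. The groups overlapped in mt-Nd4, mt-Cytb, mt-Nd1 and mt-Rnr2, and not in the other 8 genes that lost most. The call of mt-Rnr2 was lost in 8 fits, with no filter on low counts and without library E_C_3401, E_C_3417, E_C_3418 or E_C_3428 or library E_MR_3403, E_MR_3405 or E_MR_3423.

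The 12 genes with the smallest p-values included genes outside the classical amino acid response. Htatip2 (ENSMUSG00000039745), a short-chain dehydrogenase relative with tumour suppressor activity, had a lowest, median and highest value of 21.7, 24.9 and 27.4 CPM in controls and 69.99, 105 and 127 CPM with MR. Its log2 fold change was 2.04 ± 0.12 (SE; adjusted p = 2.36e-11), and the groups were far apart. Col27a1, a fibrillar collagen chain, fell from 53.6, 63.3 and 78.3 CPM (lowest, median, highest) to 12.4, 14.3 and 20.7 CPM, a log2 fold change of -2.09 ± 0.14 (adjusted p = 5.67e-11). Epb41l1, which links the membrane to the cytoskeleton, rose by 2.57 ± 0.18, the glucuronosyltransferase Ugt2b35 by 1.27 ± 0.09 and the aldo-keto reductase Akr1c19 by 1.33 ± 0.09. For each of these 3 genes the lowest MR library lay above the highest control. The others of the 12 were Psat1, Asns, Gsta2, Vldlr, Gstm1, Gars and Serpina12.

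By fold change, the largest rises among called genes whose average log2 CPM reached 1 were those of Cyp2b9, Cyp2a4 and Cyp2a22, female-biased cytochrome P450 genes described below. Gsta1, a glutathione transferase, rose by 3.78 ± 0.42, from at most 0.428 CPM in controls to at least 1.86 CPM with MR, and Slc16a5, a monocarboxylate carrier, by 2.18 ± 0.35. Gpat3, which starts triglyceride synthesis, rose by 2.06 ± 0.29. The largest falls were those of Tff3, a secreted mucosal peptide (-3.88 ± 0.69, or -3.15 without library E_C_3401, which held 10.04 CPM against at most 2.84 CPM in the other controls), Cyp4a12b and Selenbp2, a selenium-binding protein. Selenbp2 lay between 43.7 and 160.4 CPM in controls and between 5.09 and 11 CPM with MR (-3.77 ± 0.47). Susd4, a complement regulator, fell by 2.6 and the cell surface proteoglycan Gpc1 fell by 2.33, and neither overlapped between the groups.

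Genes that ATF4 is known to induce rose. Of 36 tested members of the ATF4 list, 23 rose and 0 fell, 63.9% called against 13.4% of all genes, and the median was 0.85. Asns (ENSMUSG00000029752), which makes asparagine, had a lowest, median and highest control value of 3.67, 8.06 and 10.4 CPM and MR values of 58, 72.6 and 80.4 CPM. Psat1, an enzyme of serine synthesis, had 1.5, 1.76 and 2.52 CPM in controls and 17.4, 28 and 46.2 CPM with MR in the same order. In both genes every MR library was several times above the highest control. Vldlr, a lipoprotein receptor, rose by 2.5 ± 0.17 and Gars, the glycyl-tRNA synthetase, by 0.94 ± 0.07 (adjusted p = 3.73e-10). Herpud1 (-0.0031 ± 0.18, adjusted p = 0.994), which acts in protein disposal from the endoplasmic reticulum, and Gpt2 (-0.13 ± 0.12, adjusted p = 0.576), an alanine aminotransferase, were the most abundant members that did not pass. Of 47 transcription factors of the liver 5 rose (3 without library E_C_3427 or E_C_3430 or library E_MR_3424) and 5 fell (3 without library E_MR_3405), 21.3% called, with a median of -0.03. Tcf24 (2.75 ± 0.26) and Atf5 (0.91 ± 0.11), itself induced by ATF4, rose, and Cebpa (-0.27 ± 0.07), a regulator of hepatocyte genes, and Srebf1 (-0.80 ± 0.17), a driver of fatty acid synthesis, fell. Tcf24 lay between 0.678 and 4.6 CPM in controls and between 14.3 and 22 CPM with MR.

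The composite C/EBP-ATF motif TGATGNAA, to which ATF4 binds with a C/EBP partner, was searched on both strands from 250 bases before to 50 bases after each start in RefSeq's promoters (GRCm38.p6). A gene counted if any of its promoter entries held the motif, and the numbers of entries per gene were not compared. The motif was present in 2.85% of the 10003 tested genes with a promoter entry, in 4.63% of genes that rose and in 3.17% of genes that fell. Of the 19 called ATF4 list members with an entry, 7 held it (36.8%). These genes are known ATF4 targets, some of them defined through this motif, so the share is a description. Stretches around the motif, with the motif in capitals, are shown for the 6 called members with the smallest p whose match lies before the start, since they place the element beside the measured rise. They are written 5′ to 3′ on the gene's strand, and TTNCATCA is the motif read from the opposite strand.
Asns: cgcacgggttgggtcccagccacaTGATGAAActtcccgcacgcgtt
Vldlr: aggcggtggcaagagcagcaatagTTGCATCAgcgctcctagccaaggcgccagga
Gars: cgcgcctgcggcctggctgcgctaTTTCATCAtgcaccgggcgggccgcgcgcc
Pycr1: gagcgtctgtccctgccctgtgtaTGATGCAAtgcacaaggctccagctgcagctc
Slc7a11: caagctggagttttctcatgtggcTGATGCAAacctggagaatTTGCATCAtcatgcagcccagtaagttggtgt
Nupr1: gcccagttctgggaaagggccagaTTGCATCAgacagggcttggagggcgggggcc
The Asns stretch is chr6:7693210-7693256 (minus strand), that of Vldlr chr19:27216796-27216851 (plus), and that of Gars chr6:55037947-55038000 (plus). Those of Pycr1 and Slc7a11 are chr11:120643820-120643875 and chr3:50443629-50443703 (both minus), and that of Nupr1 is chr7:126625549-126625604 (minus). Counted from the start, with -1 the base just before it, the motif begins at -23 in Asns, -30 in Gars and -200 in Vldlr, and Slc7a11 holds it on each strand, at -66 and -47. Asns, Vldlr and Gars rose by 3.23, 2.5 and 0.94. Pycr1, which makes proline, rose by 2.81 ± 0.33, the cystine transporter Slc7a11 by 3.81 ± 0.74 (5.99 without library E_C_3430, which held 0.910 CPM against at most 0.162 CPM in the other controls) and the stress-induced regulator Nupr1 by 1.33 ± 0.28.

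Serine and folate genes changed in both directions. Of 33 members 9 rose and 3 fell, 36.4% called against 13.4% of all genes. The mitochondrial folate enzymes Aldh1l2 (3.48 ± 0.37), Mthfd2 (2.49 ± 0.29) and Shmt2 (0.26 ± 0.05) rose. The cytosolic Shmt1 fell by 0.40 (SE 0.07, adjusted p = 0.00039), and the mitochondrial dimethylglycine dehydrogenase Dmgdh fell by 0.31. Gnmt (-0.25 ± 0.11, adjusted p = 0.136), which consumes S-adenosylmethionine, did not pass. Of 24 enzymes that charge tRNAs in the cytosol 7 rose and 0 fell, 29.2% called. They included the methionyl enzyme Mars (0.57 ± 0.10), Nars (0.34 ± 0.07) and Iars (0.44 ± 0.10), and the threonyl enzyme Tars had -0.06 ± 0.11 (adjusted p = 0.8). Of 26 plasma membrane amino acid transporters 8 rose and 2 fell, 38.5% called (0 fell without library E_C_3401, E_C_3427, E_C_3428 or E_C_3430 or library E_MR_3403, E_MR_3405 or E_MR_3416, and 1 without library E_C_3417 or library E_MR_3420). Slc3a2 (1.14 ± 0.12), the heavy chain shared by several exchangers, Slc7a7 (1.15 ± 0.16) and the taurine and betaine carrier Slc6a13 (0.46 ± 0.07) rose. The glutamine carrier Slc38a3 had -0.20 ± 0.08 (adjusted p = 0.123). In the list of mTORC1 amino acid sensing 15.4% were called, near the 13.4% of all genes. The 4 of 39 that rose included the translation repressor Eif4ebp1 (0.68 ± 0.08) and the mTOR inhibitor Deptor (0.33 ± 0.06), and 2 fell, Sesn3 (-0.50 ± 0.11) and Sec13 (-0.37 ± 0.09).

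Some enzymes that break amino acids down fell. Of 50 members 1 rose and 10 fell, 22% called against 13.4% of all genes, with a median of -0.08. Without library E_MR_3405, and likewise without library E_MR_3416, 6 members fell. Haao, an enzyme on the route from tryptophan to NAD, fell from 441, 478 and 524 CPM (lowest, median, highest) to 282, 319 and 347 CPM, and the groups did not overlap. Hao1, which oxidises glycolate, fell by 0.68 and Kmo fell by 0.37, while Ddc, which decarboxylates aromatic amino acids, rose by 0.58 ± 0.15. Of 14 urea cycle and ammonia genes only Glul, glutamine synthetase, passed (-0.31 ± 0.08), 7.14% called. Cps1, the entry enzyme of the urea cycle, had -0.12 ± 0.15 (adjusted p = 0.69). Of 32 genes of the methionine cycle and transsulfuration 6 rose and 5 fell, 34.4% called against 13.4% of all genes, with a median of -0.07. In sulfur metabolism Csad, which makes the taurine precursor hypotaurine, rose by 1.2 ± 0.25 and Mat1a by 0.55 ± 0.11. Gamt, which makes creatine with a methyl group from S-adenosylmethionine, fell by 0.43.

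NRF2 targets and detoxification genes rose. Among 46 NRF2 targets and glutathione enzymes tested, 30 rose and 2 fell, 69.6% against 13.4% of all genes. In 25 of the 46 all MR libraries lay above all controls, against 3.24% of all genes. Gsta2 had a lowest, median and highest value of 5.24, 11.5 and 14 CPM in controls and 72.4, 91.5 and 111 CPM with MR, with no overlap. Ephx1, the microsomal epoxide hydrolase, rose by 1.47 ± 0.12 and Gsta4 by 1.59 ± 0.13. Mgst1, a membrane-bound glutathione transferase, went the other way and fell by 0.44 (SE 0.07, adjusted p = 0.000138). Of all 21 glutathione S-transferases 12 rose and 3 fell, 71.4% called.

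The antioxidant response element core TGACNNNGC, the site of NRF2, was searched and counted per gene in the same promoter windows. It was found in 16.8% of all tested genes with an entry, 20.2% of genes that rose and 16.6% of genes that fell. It was present in 7 of 26 called NRF2 list members (26.9%) and in 6 of 19 called ATF4 list members (31.6%). Stretches of 4 called NRF2 list members with a match before the start are printed, with the core in capitals (GCNNNGTCA when read from the opposite strand).
Ugdh: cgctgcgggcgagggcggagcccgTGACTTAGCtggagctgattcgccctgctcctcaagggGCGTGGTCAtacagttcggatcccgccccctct
Abcc4: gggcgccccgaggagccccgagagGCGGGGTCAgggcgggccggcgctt
Gclm: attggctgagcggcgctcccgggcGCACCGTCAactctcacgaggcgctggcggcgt
Txnrd1: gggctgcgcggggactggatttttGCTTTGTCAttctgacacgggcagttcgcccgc
They lie at chr5:65435904-65435998 (minus strand) for Ugdh, chr14:118706220-118706268 (minus) for Abcc4, chr3:122245399-122245455 (plus) for Gclm and chr10:82859090-82859146 (plus) for Txnrd1. Ugdh, which makes UDP-glucuronate, rose by 1.23 ± 0.14, and Abcc4, an exporter of conjugates, by 1.73 ± 0.24. Gclm, the modifier subunit of glutathione synthesis, rose by 0.45 ± 0.07 and thioredoxin reductase Txnrd1 by 0.45 ± 0.07.

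Cytochrome P450 genes changed in both directions. Of 62 members 17 rose and 15 fell, 51.6% called against 13.4% of all genes, with a median of -0.05. All 4 Cyp2a genes tested and both Cyp2b genes rose. With limma-voom 1 of the 2 Cyp2b genes rose. With only the 12 elemental libraries, or with a minimum of 1 CPM, only 1 Cyp2b gene passed the filter on low counts, and it rose. Cyp2a5, which oxidises coumarin and nicotine, had a lowest, median and highest value of 97.5, 129.8 and 173 CPM in controls and 364, 678 and 969 CPM with MR. Its MR values fell into 3 libraries below 430 CPM and 3 above 920 CPM, all above the controls. Of 8 Cyp2d genes 0 rose and 4 fell, among them Cyp2d9 (-1.58 ± 0.21), a male-specific steroid hydroxylase, and Cyp2d40 (-1.1 ± 0.14). Within family 4 the fatty acid hydroxylases Cyp4a31 (1.76 ± 0.27), Cyp4a14 (2.04 ± 0.34) and Cyp4a10 (1.02 ± 0.29) rose. Cyp4a12b (-3.87 ± 0.47) and Cyp4a12a (-1.53 ± 0.42), which are male-biased, fell. The abundant Cyp2e1 (-0.13 ± 0.08, adjusted p = 0.308) and Cyp2f2 (-0.18 ± 0.13, adjusted p = 0.415) did not pass. Of 13 glucuronosyltransferases 4 rose, all of the Ugt2b subfamily (Ugt2b35, Ugt2b36, Ugt2b34 and Ugt2b5), and Ugt2b1 (-0.65 ± 0.12) and Ugt2b38 (-2.23 ± 0.44) fell. Carboxylesterases split as well, with Ces1b (1.63 ± 0.16), Ces1g (0.78 ± 0.11) and Ces1c (0.39 ± 0.09) higher and Ces3b (-1.0 ± 0.21), Ces3a (-0.63 ± 0.14) and Ces2e (-0.60 ± 0.13) lower. Genes of the Cyp2a, Cyp2b, Cyp4a, Gsta, Gstm, Ugt2b, Ces, Mup, Serpina1, Slc22a, Acot and H2-Q families have near-identical copies, between which reads could be split or shared, so their single values are uncertain.

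Among membrane transporters, exporters of the ABC family included several rises. Of 40 ABC transporters 11 rose and 3 fell, against shares of 6.78% and 6.64% over all genes. They were led by Abca8b (1.27 ± 0.11), which moves cholesterol, Abcc4 and the drug efflux pump Abcb1a (1.78 ± 0.30). Of 235 solute carriers 30 rose and 39 fell, 29.4% called against 13.4% of all genes, with a median of -0.03. Slc39a4, an importer of zinc, had a lowest, median and highest value of 14, 20.6 and 37.1 CPM in controls and 76.5, 105 and 112 CPM with MR, and the groups were far apart. Among the 20 genes of both zinc carrier families it was the only one to rise, and 5 fell. The related organic anion carriers Slc22a29 (3.91 ± 0.49), Slc22a27 (3.25 ± 0.46) and Slc22a26 (3.66 ± 0.61) rose, and Slc22a7 fell by 1.71. The value of Slc22a29 was 4.93 without library E_C_3427, which held 0.484 CPM against at most 0.120 CPM in the other controls. The lowest MR values of the 3 carriers that rose lay above their highest control values. Of 27 genes of metal ion and iron handling 5 rose and 4 fell, 33.3% called. The ferritin chains Ftl1 (0.77 ± 0.09) and Fth1 (0.60 ± 0.08) and the iron exporter Slc40a1 (0.84 ± 0.11) rose, and the metal importer Slc39a14 (-0.42 ± 0.09) and Hamp2 (-1.37 ± 0.39), a relative of the iron hormone hepcidin, fell. The call of Hamp2 was lost without library E_C_3427. All 6 erythroid markers had values below 0, 2 of them called, and they summed to 3093 to 7465 CPM in controls and 1347 to 7284 CPM with MR, with overlap. Their part in the iron and haem values was not tested. Hpx (0.10 ± 0.08, adjusted p = 0.501) and Trf (-0.07 ± 0.06, adjusted p = 0.552), which carry haem and iron in plasma, did not pass. Blvrb, biliverdin reductase B, rose by 0.72 ± 0.07.

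**Figure D2:**
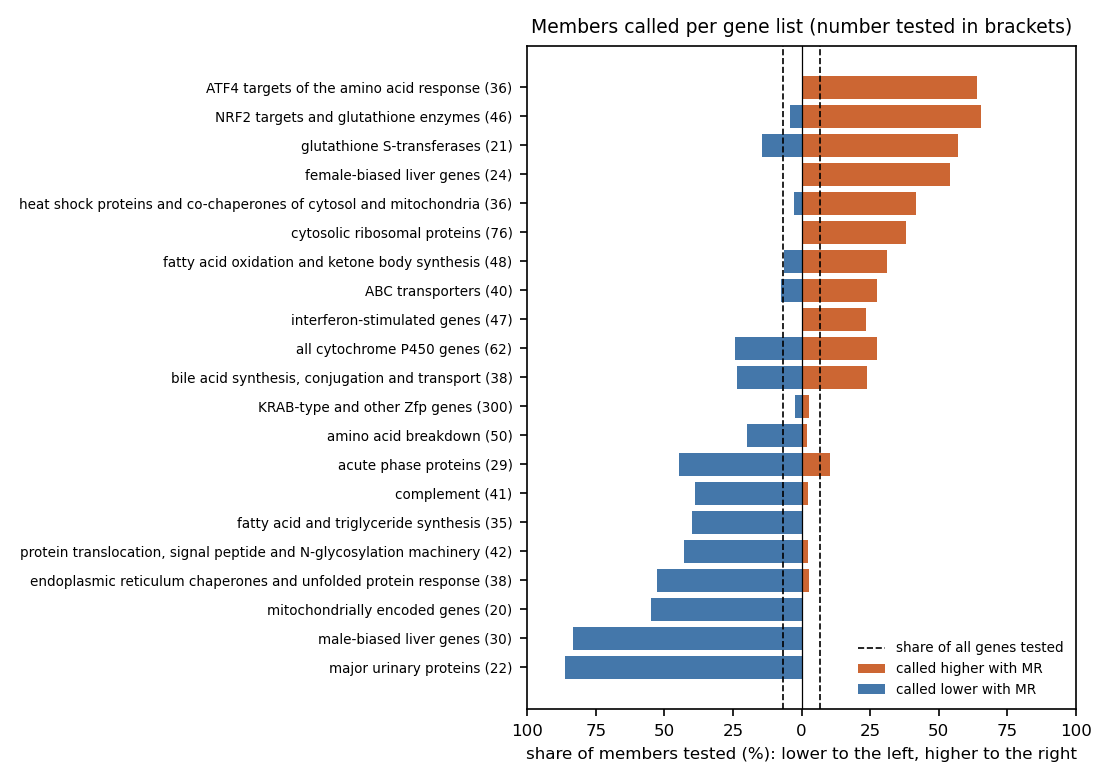
Share of the tested members of 21 gene lists and families called higher (orange, right) or lower (blue, left) with elemental MR, with dashed lines at the share over all genes tested (6.78% higher, 6.64% lower). The ATF4 and NRF2 lists lie at the top with 23 of 36 and 30 of 46 members higher, and the Mup family at the bottom with 19 of 22 lower, while the 300 Zfp genes lie inside the dashed lines on both sides.

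Genes of protein folding moved in opposite directions in the secretory pathway and in the cytosol and mitochondria. Of the list of the endoplasmic reticulum 55.3% were called, and of that of cytosol and mitochondria 44.4%, against 13.4% of all genes. Of 38 chaperones and unfolded protein response genes of the endoplasmic reticulum 1 rose and 20 fell (0 rose with upper quartile scaling and without library E_C_3401, E_C_3427, E_C_3428 or E_C_3430 or library E_MR_3405, E_MR_3420, E_MR_3423 or E_MR_3424). Of 36 heat shock proteins and co-chaperones of cytosol and mitochondria 15 rose and 1 fell (0 fell without library E_C_3401, E_C_3417, E_C_3418 or E_C_3427 or library E_MR_3405, E_MR_3423 or E_MR_3424). Hspa5, the main chaperone of the endoplasmic reticulum, had a lowest, median and highest value of 1092, 1289.5 and 1585 CPM in controls and 644, 749.7 and 944 CPM with MR, a change of -0.79 ± 0.13. Fkbp11 (-1.09 ± 0.12), a prolyl isomerase of the reticulum, and the disulfide isomerase Pdia6 (-0.70 ± 0.10) fell as well, with no overlap between the groups. Canx, calnexin, had -0.14 ± 0.05 (adjusted p = 0.0828). Hspa9, the mitochondrial Hsp70, lay between 344 and 357 CPM in controls and between 458 and 587 CPM with MR (0.58 ± 0.05). The cytosolic Hsp90ab1 (0.42 ± 0.07), the mitochondrial co-chaperonin Hspe1 (0.34 ± 0.06) and the chaperonin subunit Cct4 (0.29 ± 0.06) rose. The abundant Cct8 (-0.0021 ± 0.05, adjusted p = 0.988) did not pass. Among the DnaJ proteins, which serve both compartments, Dnajb1 (0.49 ± 0.11) of the cytosol and Dnaja3 (0.29 ± 0.07) of mitochondria rose, and Dnajb11 (-0.59 ± 0.11) and Dnajc3 (-0.26 ± 0.07) of the endoplasmic reticulum fell.

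The fall reached the steps before and after folding. Of 42 genes of translocation, signal peptide removal and N-glycosylation 1 rose and 18 fell (11 without library E_C_3427). Tram1, a part of the translocation channel, lay between 165 and 181 CPM in controls and between 106 and 121 CPM with MR. Ssr1 (-0.49 ± 0.07) and the oligosaccharyl transferase subunits Rpn2 (-0.25 ± 0.04) and Ddost (-0.37 ± 0.07) fell, and Stt3b (0.21 ± 0.06) rose. Of 40 genes of vesicle traffic between reticulum and Golgi 1 rose (0 without library E_C_3418, E_C_3427 or E_C_3430 or library E_MR_3403, E_MR_3423 or E_MR_3424) and 15 fell, among the latter Sec22b (-0.40 ± 0.06), Tmed9 (-0.45 ± 0.08) and Surf4 (-0.23 ± 0.04). The shares called in these lists were 45.2% and 40%, against 13.4% of all genes. The changes were small, with list medians of -0.20 and -0.18.

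Transcripts of the cytosolic ribosome were slightly higher. Of 76 ribosomal protein genes 29 rose and 0 fell, 38.2% called against 13.4% of all genes. A value above 0 was found in 75 of the 76 genes, and the median was 0.20. The groups overlapped in all but 2 of them. Over all genes 3.24% had all MR libraries above all controls. Rps20 (0.38 ± 0.08) and Rps26 (0.33 ± 0.07) had the smallest p, and Rpl4 had 0.22 ± 0.08 (adjusted p = 0.0717). The count moved with single libraries: it was 9 without library E_MR_3405, 14 without E_MR_3416 and 19 without E_MR_3403, and 15, 17 and 15 without libraries E_C_3417, E_C_3427 and E_C_3428. It was 38 without library E_C_3401 and 35 without library E_MR_3420. Over all alternatives the median lay between 0.16 and 0.24. Of 78 mitochondrial ribosomal protein genes 5 rose and 0 fell, 6.41% called, below the 6.78% of all genes called higher (3 rose without library E_C_3418 or E_C_3428, and 1 fell without E_C_3401 or E_C_3428). Of 48 proteasome genes 7 rose and 0 fell (4 without library E_C_3427, 3 without library E_MR_3405, 11 by DESeq2's Wald test). With 14.6% called they lay near the 13.4% of all genes. Initiation factors included 5 rises among 47 and no falls, 10.6% called, below the 13.4% of all genes. Eif4g2 (0.41 ± 0.05) and Eif2s2 (0.36 ± 0.06) were among them.

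Transcripts of the mitochondrial genome were lower. Of 20 tested 3 had all MR libraries below all controls, against 3.59% of all genes, and in the others the groups overlapped. All 20 had a value below 0 and 11 fell, 55% against the 6.64% of all genes that fell. Together they took 14.8 ± 0.980% of reads in controls and 12.3 ± 0.403% with MR (SD, n = 6), a difference of -2.57 percentage points (two-sided exact permutation p = 0.00216, the smallest that 6 against 6 libraries allow, adjusted p = 0.00361 over 5 measures). mt-Nd2, a subunit of complex I, had a lowest, median and highest value of 20222, 21107 and 24225 CPM in controls and 12772, 14407 and 16237 CPM with MR, with no overlap. mt-Nd5 fell by 0.39 and mt-Cytb fell by 0.42, and mt-Rnr1, a ribosomal RNA, had -0.26 ± 0.11 (adjusted p = 0.113). The median of 47 nuclear genes of complex I was -0.02. In the citric acid cycle list 7 of 36 rose, among them Idh2 (0.47 ± 0.09), and 2 fell (1 without library E_C_3401, E_C_3418, E_C_3428 or E_C_3430 or library E_MR_3403, E_MR_3420, E_MR_3423 or E_MR_3424).

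**Figure D3:**
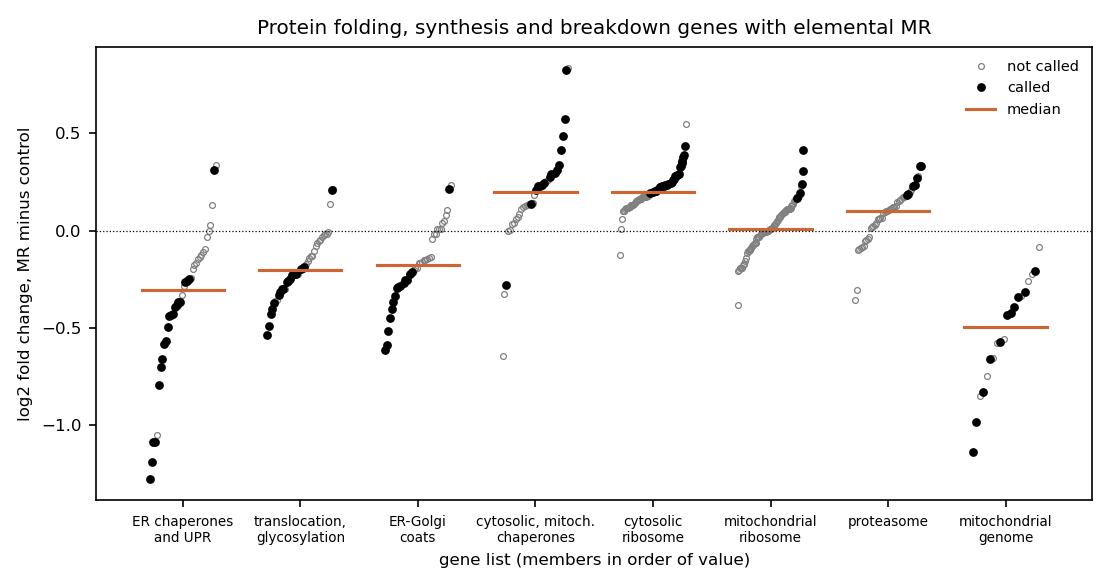
Log2 fold change of each tested member of 8 lists with elemental MR, in order of value within a list, with filled points for called genes, open points for genes not called and an orange line at the median. The 3 secretory lists and the mitochondrial genome have medians between -0.50 and -0.18, and the chaperones of cytosol and mitochondria and the cytosolic ribosome have medians of 0.20 and 0.20.

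Secreted plasma proteins fell more often than they rose. Of 41 complement genes 1 rose and 16 fell, of 29 acute phase genes 3 rose and 13 fell, and of 18 clade A serpins 2 rose and 11 fell. The shares called were 41.5%, 55.2% and 72.2%, against 6.78% higher and 6.64% lower over all genes. Of 34 coagulation and fibrinolysis genes 1 rose and 6 fell, 20.6% called. C6, a component of the membrane attack complex, had a lowest, median and highest value of 147, 212 and 243 CPM in controls and 24.8, 32.2 and 53.9 CPM with MR. C4bp, an inhibitor of complement, fell by 0.57 and coagulation factor F11 fell by 1.22 (SE 0.14). The fibrinogen chains Fgg (-0.30 ± 0.08) and Fga (-0.25 ± 0.07) fell, and Fgb had -0.27 ± 0.10 (adjusted p = 0.0667). Orm1, an acute phase lipocalin, fell by 1.73, whereas Lbp (0.73 ± 0.13), which binds bacterial lipid, Apcs (0.90 ± 0.18) and C3 (0.36 ± 0.10) rose. The serpins that rose were the hormone carriers Serpina6 (1.11 ± 0.13), which binds corticosteroids, and Serpina7 (1.46 ± 0.28), which binds thyroxine. Serpina6 lay between 106 and 117 CPM in controls and between 186 and 269.6 CPM with MR. Serpina12, the adipokine vaspin, fell from a lowest, median and highest of 103, 117 and 209 CPM to 6.2, 13.7 and 17.1 CPM. Several of these genes, C6 and Serpina12 among them, are also male-biased.

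Some genes of fatty acid synthesis fell and some of fatty acid oxidation rose. Of 35 tested members of the synthesis list, which covers fatty acids and triglycerides, 0 rose (1 without library E_C_3417), 14 fell and 21 were not called. The share called was 40%, against 13.4% of all genes. Gpat3, which rose as given above, is not on that list. Scd1, which makes oleate, had a lowest, median and highest value of 2603, 3431.1 and 6275 CPM in controls and 609, 1056 and 1598 CPM with MR, with no overlap. Pklr, liver pyruvate kinase (-1.06 ± 0.15), Thrsp (-2.34 ± 0.36) and the elongase Elovl5 (-0.87 ± 0.15) fell, and Fads1 had -0.34 ± 0.12 (adjusted p = 0.0637). Of 48 genes of oxidation and ketone body synthesis 15 rose and 3 fell, 37.5% called (0 fell without library E_C_3428 or E_C_3430 or library E_MR_3403, E_MR_3416 or E_MR_3424, and 1 without library E_MR_3405 or E_MR_3423). The rises were led by the thioesterases Acot2 (1.29 ± 0.19) and Acot3 (2.02 ± 0.35) and the Cyp4a genes above. Of 15 thioesterases 7 rose, and the peroxisomal coenzyme A hydrolase Nudt7 fell by 0.91. Cd36, a fatty acid importer, had 13.7, 23.1 and 28.5 CPM (lowest, median, highest) in controls and 61.9, 69.4 and 95.1 CPM with MR. The lipid droplet protein Hsd17b13 rose by 0.57 ± 0.08, and Fabp5 fell by 2.2, from 5.77, 11.7 and 42.5 to 1.76, 3.51 and 5.54 CPM (lowest, median, highest), with a wide spread among controls.

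Sterol and bile acid genes changed in part. Of 28 cholesterol genes 0 rose and 4 fell, 14.3% called, near the 13.4% of all genes. Those that fell included Insig2 (-0.69 ± 0.12) and the sterol isomerase Ebp (-0.30 ± 0.06), and Hmgcs1 had -0.15 ± 0.29 (adjusted p = 0.81). Fitting only the 12 elemental libraries gave 7 falls. Of 38 bile acid genes 9 rose and 9 fell, 47.4% called. Cyp39a1, which hydroxylates 24-hydroxycholesterol, had a lowest, median and highest value of 7.17, 8.82 and 14.4 CPM in controls and 41.1, 45.5 and 50.7 CPM with MR, and the canalicular pumps Abcb11 (0.47 ± 0.08), for bile salts, and Abcb4 (0.36 ± 0.08), for phospholipid, rose. Cyp7b1, of the alternative bile acid route, fell by 1.26, Scp2 fell by 0.38 and Abcg2 fell by 0.48. Slc10a2, the bile acid importer known from the ileum and the bile duct epithelium, lay between 12.1 and 18.2 CPM in controls and between 2.74 and 3.93 CPM with MR. All 5 tested cholangiocyte markers had values below 0 and summed to 36.1 to 58.8 CPM in controls and 20.5 to 33.1 CPM with MR, and Sox9 among them fell by 1.29. Their part in the Slc10a2 result was not tested, and in these bulk samples fewer cells of a type and less RNA per cell cannot be told apart.

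In carbohydrate metabolism 4 of 48 genes rose and 9 fell, 27.1% called against 13.4% of all genes. Pck2, the mitochondrial phosphoenolpyruvate carboxykinase and a known ATF4 target, rose by 2.12 ± 0.19, Aldoa by 0.77 ± 0.12 and Pfkp by 1.22 ± 0.19, the latter 2 being forms more typical of other tissues. Khk, ketohexokinase, fell by 0.50, Pygl, liver glycogen phosphorylase, fell by 0.47 and the fructose carrier Slc2a5 fell by 1.25. Pck1, the cytosolic carboxykinase, had 0.09 ± 0.28 (adjusted p = 0.89). Autophagy genes included 9 rises among 49, and 3 falls (5 without library E_C_3428), 24.5% called. Gabarapl1 (0.66 ± 0.08), Map1lc3b (0.36 ± 0.06) and the cargo receptor Sqstm1 (0.46 ± 0.07) rose. Wipi1 (-0.62 ± 0.09) fell. Gadd45b, a stress-induced regulator, rose from 0.428, 0.554 and 1.54 CPM (lowest, median, highest) to 2.31, 4.92 and 10.2 CPM.

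Hormone signalling genes changed in part. Ghr, the growth hormone receptor, had a lowest, median and highest value of 432, 447 and 516 CPM in controls and 234, 274 and 324 CPM with MR, a change of -0.75 ± 0.08 (adjusted p = 2.03e-07). Igf1, its secreted target, fell by 0.34, and Igfbp2 rose by 0.84 ± 0.21. In the list of growth hormone and IGF signalling 2 of 27 genes rose and 3 fell, 18.5% called against 13.4% of all genes. The xenobiotic receptor Nr1i3 (CAR) rose by 0.41 ± 0.11. Of 37 nuclear receptors 3 rose and 3 fell, 16.2% called. Of 15 thyroid genes 3 rose and 3 fell, 40% called against 13.4% of all genes. Dio1 (-0.81 ± 0.14), which activates thyroxine, was among those that fell. Of 20 glucocorticoid receptor genes and targets edgeR called 0. At an unadjusted p under 0.05 there were 4, and the DESeq2 Wald test and limma-voom with quality weights also called 0. Single alternatives called 1, higher with only the 12 elemental libraries or without library E_C_3427 or library E_MR_3420, and lower without library E_C_3401.

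Male-biased genes fell and female-biased genes rose. Of 30 tested male-biased genes 0 rose and 25 fell, and of 24 female-biased genes 13 rose and 0 fell. The shares called were 83.3% and 54.2%, against 13.4% of all genes. The female-biased list held 34 genes, and those outside the 24 were not tested. A gene low in controls can pass the filter on low counts through the MR libraries, so the 54.2% is a description only. With only the 12 elemental libraries, 21 female-biased genes were tested and 14 of them rose. The major urinary proteins, pheromone carriers made in male liver, fell in 19 of 22 genes, and their summed level went from 11362 to 3150.3 CPM. The other members, Mup-ps20 (-1.5 ± 0.52, adjusted p = 0.0574), Mup-ps17 (-0.93 ± 0.39, adjusted p = 0.121) and Mup5 (-1.12 ± 0.47, adjusted p = 0.121), did not pass. These genes varied most among the MR libraries. Of the called genes whose average log2 CPM reached 3, those with the largest SD of log2 CPM with MR were Hsd3b5, Mup11, Cyp2a4, Cyp2b9, Cyp2a22 and Elovl3, which are on the sex-biased lists or, for Mup11, in the Mup family. Hsd3b5, a male-specific steroid reductase, was at 76.5 CPM in library E_MR_3420 and at 2.8 CPM in library E_MR_3405, against 109 to 232 CPM in controls. Cyp2b9 was at 13.1 and 143 CPM in the same libraries, against 0.431 to 3.14 CPM in controls. Library E_MR_3420 was the nearest to control in 14 of 14 called Mup genes and in 18 of 23 called male-biased genes above an average log2 CPM of 1. Library E_MR_3405 was the farthest from control in 14 and 17 of them. In each of the 5 genes plotted by library all MR libraries still lay on the same side of all controls. The STAT5 motif TTCNNNGAA, the site of the factor that growth hormone activates, was in the promoter window of 1 of 19 called male-biased genes (5.26%), 5 of 19 called ATF4 list members (26.3%), 6 of 26 called NRF2 list members (23.1%) and 8.29% of all tested genes with a promoter entry.

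**Figure D4:**
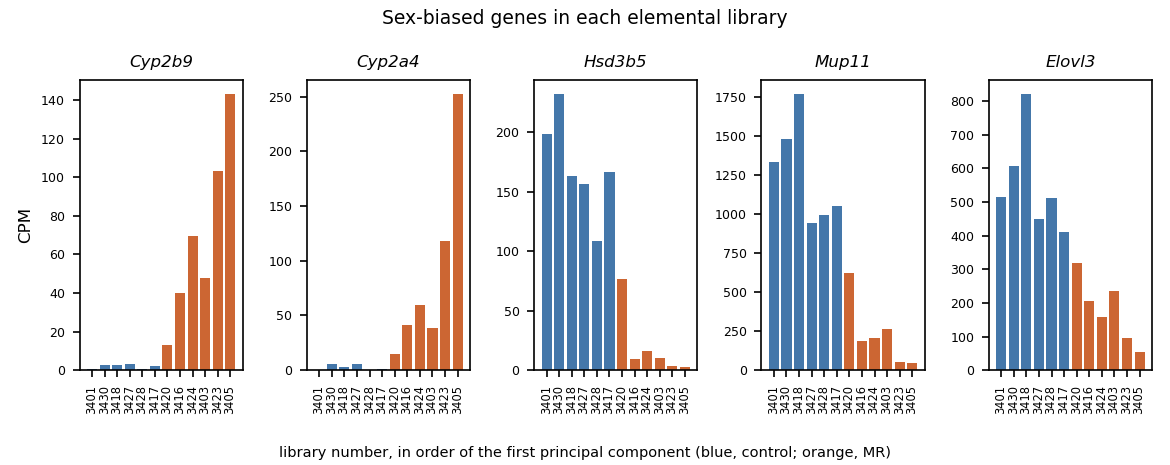
CPM of 2 female-biased genes (Cyp2b9, Cyp2a4) and 3 male-biased genes (Hsd3b5, Mup11, Elovl3) in each elemental library, bars in order of the first principal component, controls blue and MR orange. In all 5 genes library E_MR_3420 is the MR library nearest to the controls, and library E_MR_3405 is the farthest.

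Some clock genes fell, and some varied widely among libraries of 1 group. Of 23 clock genes and outputs 0 rose and 8 fell (5 without library E_MR_3405), 34.8% called against 13.4% of all genes. Per2 had a lowest, median and highest value of 3.69, 7.56 and 10.8 CPM in controls and 1.18, 2.79 and 4.34 CPM with MR, and Nr1d1, a repressor of the clock, fell by 0.57. The groups overlapped in both genes. Bhlhe41, a clock-linked repressor, fell from 0.568, 3.26 and 5.79 CPM to 0, 0.223 and 0.846 CPM in the same order, with overlap at library E_C_3418. Dbp, which peaks late in the light phase, ran from 6.9 to 79.9 CPM among controls and from 2.97 to 30.9 CPM with MR (-1.38 ± 0.56, adjusted p = 0.109). Arntl, whose product drives the clock, ran from 1.32 to 11.9 CPM among controls and from 3.16 to 9.28 CPM with MR (0.05 ± 0.43, adjusted p = 0.966). The control library with the lowest Dbp, E_C_3418, had the highest Arntl. Bcl6, a repressor that growth hormone lowers, was at 9.68 to 10.8 CPM in 3 controls and 29.6 to 63.5 CPM in the other 3, and at 4.18 to 8.63 CPM in 3 MR libraries and 48.3 to 55.1 CPM in the other 3. The labels give no time of day, so the part of sampling time in these values was not tested. Dbp, Arntl and Bcl6, like Hspa5 and Shmt2 above, were chosen after their values were seen.

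**Figure D5:**
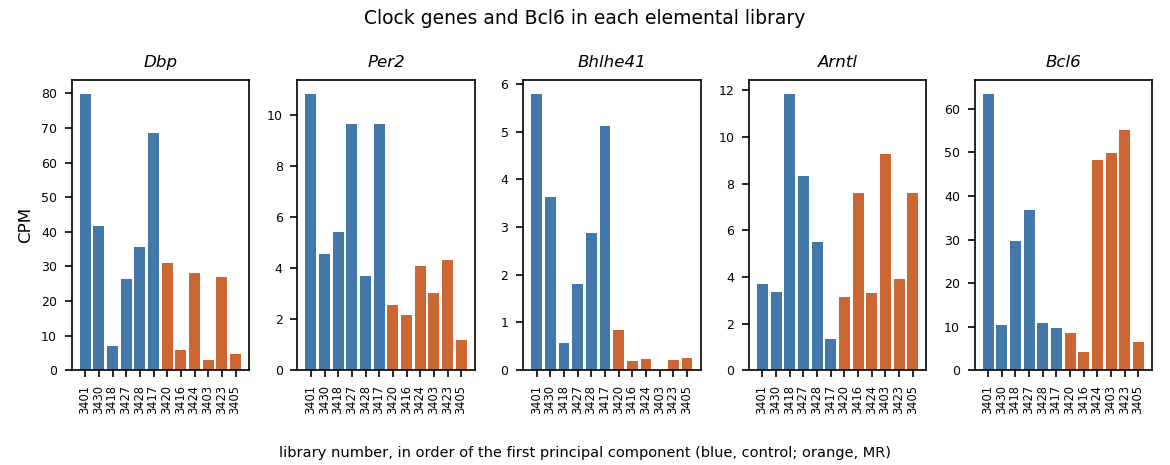
CPM of Dbp, Per2, Bhlhe41, Arntl and Bcl6 in each elemental library, bars in order of the first principal component, controls blue and MR orange. Dbp and Arntl vary several-fold among libraries of 1 group, with the highest Dbp at 79.9 CPM and the lowest at 2.97 CPM, and Bcl6 is high in 3 libraries of each group.

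Immune genes showed a small rise of interferon-stimulated genes. Of 47 tested 11 rose and 0 fell, 23.4% called against 13.4% of all genes, and 43 had a value above 0. Usp18, which limits interferon signalling, had a lowest, median and highest value of 4.88, 7.63 and 8.54 CPM in controls and 13.5, 18.2 and 22 CPM with MR. Ifi44 (0.90 ± 0.19) and Irf7 (0.59 ± 0.13) rose. The class I genes H2-Q10 (-0.47 ± 0.08), H2-Q1 (-1.59 ± 0.36) and H2-Q7 (-0.48 ± 0.12) fell. Of 12 Kupffer cell and macrophage markers edgeR called 0 (0 at an unadjusted p under 0.05, 0 by DESeq2's Wald test and 0 by limma-voom), and they summed to 509 to 763 CPM in controls and 449 to 698 CPM with MR. In the matrix list 1 of 44 rose (0 with only the 12 elemental libraries and without library E_C_3418, E_C_3428 or E_C_3430 or library E_MR_3405, E_MR_3423 or E_MR_3424) and 6 fell, 15.9% called against 13.4% of all genes, Col27a1 and Col14a1 (-0.48 ± 0.10) among the latter. All 10 stellate cell and fibroblast markers had values below 0, 2 of them called (1 without library E_C_3401, E_C_3427 or E_C_3428 or library E_MR_3403, E_MR_3405, E_MR_3420 or E_MR_3424), and they summed to 386 to 462 CPM in controls and 325 to 380.0 CPM with MR. Of these Lrat, which stores retinol, fell by 0.51. The part of these cells in the values of the matrix genes that fell was not tested. Zinc finger genes named Zfp gave a family with few changes, with 8 of 300 higher and 7 lower (4 lower with no filter on low counts).

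The elemental MR effect was set against that of casein MR, whose libraries it does not share. The difference between the effects passed the test for 315 of all genes tested (2.34%), and for 128 of the 1803 genes called with elemental MR (7.1%). Of the latter, genes with predicted or clone names or an average log2 CPM below 1 were set aside. For the 8 with the smallest p among the rest the effect was larger with casein. Retsat, a retinol saturase, rose by 0.56 with elemental and 1.85 with casein MR (difference 1.29 ± 0.17, adjusted p = 6.99e-05). Pigr, the receptor that carries immunoglobulin into bile, had changes of -0.48 and -1.8 (difference -1.32 ± 0.17, adjusted p = 5.14e-05). Dmgdh had -0.31 and -1.14, and Ncam2 -1.1 and -3.91. Nt5dc2, Rdh5, Mug2 and Serpina1b were the others, and the elemental call of Rdh5 was lost in 7 of 19 alternative fits, those without library E_C_3401, E_C_3427 or E_C_3430 or library E_MR_3403, E_MR_3405, E_MR_3420 or E_MR_3424. Since only the casein MR diet is labelled as oxidised, oxidation and protein source cannot be told apart in this difference.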

How the data were processed

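Liver RNA was sequenced in 24 libraries, of which the 12 of the elemental diets are compared here. The authors deposited raw read counts for 15161 genes, and a second table of signal, counts divided by a size factor per library, which was not used for tests. No label or file header used here names the aligner, counter, strand setting or genome build, so overlapping and antisense genes cannot be told apart. Genes with low counts were removed with edgeR's filterByExpr, which left 13441. All 24 libraries were fitted together with edgeR 4.0.16 in R 4.3.3 (TMM scaling, quasi-likelihood test), with the Benjamini-Hochberg adjustment over all genes tested. SEs were computed from the fold change and its F statistic. The alternatives were limma 3.58.1 (voom with quality weights), DESeq2 1.42.0 (Wald test, size factors), other filters and scalings, and leaving out each library. The fit was tested on simulated data. Promoters came from RefSeq (GRCm38.p6).

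The members and gene lists were chosen with earlier results of these data known. Named genes were those with the largest changes in fold (25 each way) or in CPM (12 each way) and the 12 smallest p-values. Up to 4 called members of a list in each direction were added, with its most abundant members not called. So were the genes with the largest spread among libraries, and 8 genes called with elemental MR. Those 8 had the smallest p for the difference from casein MR among such called genes. Some results are not reported here.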

Additional observations from a re-analysis of the deposited data

Results flagged for a closer look

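In 32 of 470 sets of 6 values, 1 for each named gene and diet group, the highest or lowest library stood apart from the rest by more than 0.625 of the set's range (Dixon's criterion). Chance gives this in about 1 in 20 sets of normally distributed values. The criterion was applied to CPM without a log transform, and some named genes were chosen for their spread among libraries. The 1 in 20 is therefore no measure of the number to be awaited here. Library E_C_3401 held the highest value of Fabp5 (42.5 CPM), Mgst1 (2662 CPM) and Tff3 (10.04 CPM), and the lowest value of Fth1 (1310.3 CPM). Library E_C_3418 held the highest value of mt-Nd2 (24225 CPM). Library E_C_3427 held the highest value of Slc22a29 (0.484 CPM). Library E_C_3428 held the highest value of H2-Q1 (19.1 CPM) and Nt5dc2 (12.7 CPM), and the lowest value of Ces1c (2085 CPM), Ces3a (1247 CPM), Mars (38.9 CPM) and Usp18 (4.88 CPM). Library E_C_3430 held the highest value of Cela1 (372 CPM), Fga (2356 CPM) and Slc7a11 (0.910 CPM). Library E_MR_3403 held the highest value of Shmt1 (144 CPM) and Sox9 (19.3 CPM). Library E_MR_3405 held the highest value of Acot2 (122 CPM), Gadd45b (10.2 CPM), Txnrd1 (101 CPM) and Ugt2b35 (251 CPM). Library E_MR_3416 held the highest value of Dnajb1 (32.7 CPM). Library E_MR_3420 held the highest value of Bhlhe41 (0.846 CPM), Ces2e (139 CPM), Cyp2d40 (49.2 CPM), Cyp4a12a (269 CPM), Hsd3b5 (76.5 CPM) and Insig2 (244 CPM). Library E_MR_3423 held the highest value of Slc22a29 (4.50 CPM), and the lowest value of Tram1 (106 CPM). Library E_MR_3424 held the highest value of Cyp2e1 (2683 CPM), and the lowest value of Surf4 (172 CPM).

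The effect of MR differed between the casein and elemental diets, by a test of the difference in edgeR, in 8 named genes. They had the smallest p among the genes called with elemental MR that were considered for naming. The casein log2 effect minus the elemental log2 effect was that of Pigr (-1.32), Nt5dc2 (0.99), Retsat (1.29), Dmgdh (-0.82), Rdh5 (-1.07), Ncam2 (-2.80), Mug2 (-0.93) and Serpina1b (-0.65).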

How the results depend on the processing

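The number of genes called ranged from 1400 to 1778 when 1 library was left out, against 1803, and the count for the difference from casein MR from 227 to 404, against 315. DESeq2's Wald test gave 2030 and 458. At an adjusted p below 0.01, 974 and 153 genes were called, and with a change of at least 2-fold as well as an adjusted p below 0.05, 327 and 97. Upper quartile scaling gave 807 higher and 945 lower genes, and it moved the median of all genes to -0.013 on the log2 scale. Of 211 named genes called, 205 were called in the same direction in every alternative run and 0 reversed. The others, with their highest adjusted p by any alternative, were Ahsg (0.0975), Fabp5 (0.0689), Hamp2 (0.0632), Irs2 (0.0552), Rdh5 (0.0981) and mt-Rnr2 (0.112). Of 24 named genes not called, 5 passed in at least 1 alternative: Fads1 and Fgb with DESeq2's Wald test among others, Mup-ps20 with DESeq2, limma-voom and without library E_MR_3420, Rpl4 without library E_C_3401 or E_MR_3420, and Canx without library E_C_3401. The difference in total counted reads, MR minus control, ranged from -1.4 M to 0.0618 M when 1 library was left out, and was above 0 without library E_C_3430 (0.0618 M). The cause was not tested. No paired analysis was possible because the groups share no replicate numbers. Depth limits genes near the filter, where 1 CPM is about 13 to 21 reads.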

Other observations

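Markers of the liver lobule's zones changed in part. Of 29 pericentral hepatocyte markers 1 rose and 8 fell (3 rose without library E_C_3427 or library E_MR_3420, and 2 without library E_MR_3424), and of 26 periportal markers 4 rose and 4 fell. The shares called were 31% and 30.8%, against 13.4% of all genes. Rgn, a calcium-binding lactonase, fell by 0.55, Gulo, the last enzyme of vitamin C synthesis, fell by 0.59 and Lect2, a secreted chemotactic protein, fell by 0.45. Among periportal markers Hsd17b6, a steroid dehydrogenase, rose by 1.7 ± 0.24 (SE). The water channels Aqp8 (-1.22 ± 0.22) and Aqp4 (-1.76 ± 0.36) fell.

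Retinoid genes moved both ways, with 6 of 26 higher and 6 lower, 46.2% called. Rbp4, the plasma carrier of retinol, rose by 0.26 ± 0.06 and Rdh9 by 1.08 ± 0.25. In insulin signalling 4 of 32 genes rose and 3 fell, 21.9% called against 13.4% of all genes, with a median of -0.0008. Irs2, an adaptor of the insulin receptor, rose by 0.73 ± 0.21 (not called without library E_C_3430 or library E_MR_3416). The pseudokinase Trib3, also an ATF4 target, rose by 1.0 ± 0.23. Aox1, an aldehyde oxidase, rose by 1.05 ± 0.14. Of 17 methyltransferases for small molecules 2 rose and 4 fell, 35.3% called, Tpmt (-0.52 ± 0.12) among the latter. Manf, a secreted protein of the endoplasmic reticulum, fell by 1.09.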
